A study of Mus musculus with 48 samples.

Results

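The step from day 2 to day 3 of adipogenesis was followed in 3T3-L1 cells that had received control siRNA. 3T3-L1 is an established mouse fibroblast line that turns into fat cells when given hormones. The comparison uses 6 arrays out of 48, the 3 control arrays of day 3 against the 3 control arrays of day 2, chosen by siRNA and day alone and read across all 24613 probes of an Illumina MouseRef-8 chip. Each sample was total RNA of a whole culture, so fewer cells of a kind and less RNA per cell cannot be told apart in any value below. All cells, control and knockdown alike, were transfected with 50 nM siRNA, either a non-targeting pool (siCONTROL) or a SMARTpool against PPARγ, and brought to confluence. The protocol then gave 0.5 mM isobutylmethylxanthine (IBMX) with 0.25 µM dexamethasone for 48 h, followed by insulin (5 µg/ml) with 1 µM rosiglitazone for 48 h. Days are counted from rosiglitazone, and the medium was changed every 2 days, so that, if the 48 h of insulin and rosiglitazone began on day 0, day 2 closed that period and day 3 was the first harvest after it. The labels do not state the medium of each day, and this reading rests on their protocol alone. On the same reading IBMX with dexamethasone began on day −2. Cultures of days −2, 0 and 1 were then harvested before the full course had been given. Whether the day −2 harvest came before or after that start is not stated. The removal of insulin and rosiglitazone, fresh medium and time itself cannot be told apart here. The other groups are control siRNA and PPARγ siRNA on days −2, 0, 1, 2, 3, 4, 5 and 6, with 3 independent biological replicates each. The line is a single line in culture, and the knockdown cells were a transfected population, not a clone.

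Conversion of a fibroblast into an adipocyte runs in waves. Glucocorticoid and cAMP signals first switch on the early factors C/EBPβ and C/EBPδ, the cells go through a short burst of division called mitotic clonal expansion, and PPARγ and C/EBPα then turn on the genes of lipid storage. During this change the stress fibres and the fibrillar matrix of the fibroblast are taken down. Rosiglitazone is a ligand of PPARγ, and dexamethasone acts through the glucocorticoid receptor.

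The labelled cell type was checked against its markers. Of 9 adipocyte markers, 7 were above background (detection p under 0.01) on all 3 arrays of both days, and leptin (Lep) was on none. All 8 fibroblast markers were above background on all 6 arrays. None of the 4 brown adipocyte, 5 skeletal muscle or 4 endothelial markers was above background on any array, and of 6 macrophage markers only Cd14, a lipopolysaccharide co-receptor, was, on day 3. Pparg itself stood at 11.68, 11.32 and 11.70 (normalized log2 signal, replicates 1 to 3) on day 2 and at 11.61, 11.38 and 11.46 on day 3. In PPARγ KD cells its mean was 9.64 on day 2 and 8.85 on day 3, below every control array of the same day. Between 33.5% and 39.4% of probes were above background on the 6 arrays. Replicate 3 stood apart from replicates 1 and 2 on both days: the first principal component of the 6 arrays held 61% of their variance and separated replicate 3, and the second held 30.2% and separated the days. The replicate number was a block in the fit behind the values below.

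The switch was broad and went both ways. With limma's test over all 48 arrays and Bonferroni adjustment over all probes, 1114 probes (4.53% of those tested) were higher on day 3 and 965 (3.92%) were lower. All 2079 moved the same way in all 3 replicate pairs, values from the arrays that made the call, so this is no separate support. The rises were larger than the falls, with a median of 0.90 against −0.76 on the log2 scale, and 447 rises but 187 falls were past 2-fold. The split of the calls was near even and turned with a larger background offset of 50, which gave 1021 higher and 1042 lower, and with Benjamini-Hochberg adjustment, which gave 2617 and 2694. Read by gene, through the brightest of its probes, 990 of 18750 genes (5.28%) rose and 786 (4.19%) fell, and the median difference of all genes was 0.02. Only 7179 of the 18750 genes were above background on all 3 arrays of at least 1 day, a smaller share than in most lists below. The shares over all genes are therefore low marks to set a list against, and shares over detected genes alone were not computed. A modest excess, such as the 9.76% of cytosolic ribosome genes that fell (34 of 41 so detected), cannot be read as particular to that list. No gene had probes called in opposite directions. Leaving out replicate 3 from all conditions gave 1456 probes, leaving out replicate 1 gave 803 and leaving out replicate 2 gave 885.

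**Figure D1:**
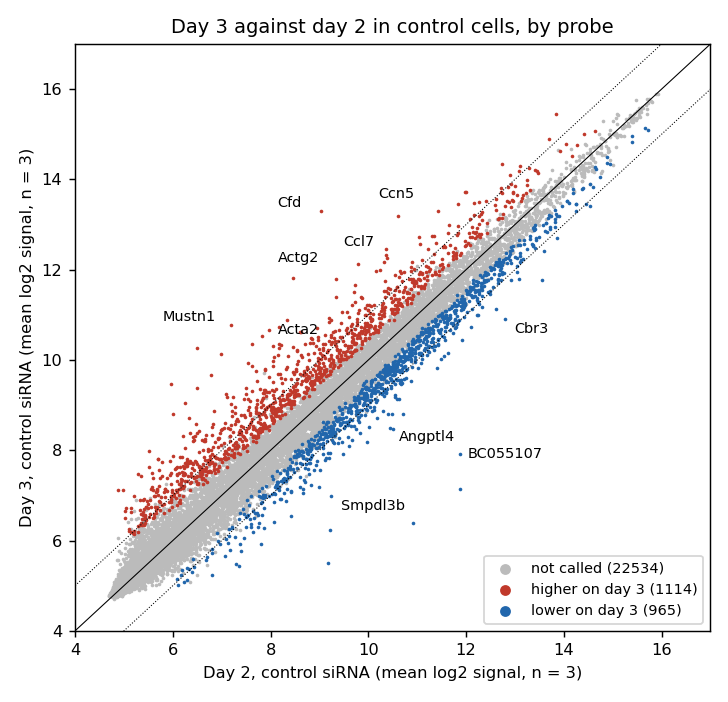
Mean normalized log2 signal of each probe on day 3 (vertical axis) against day 2 (horizontal axis) in control siRNA cells, n = 3 arrays a day. Red points are the 1114 probes called higher on day 3, blue points the 965 called lower, the solid line marks equal signal and the dotted lines a 2-fold difference. Cfd and Mustn1 lie far above the line, and BC055107 lies far below it.

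Genes of the contractile cytoskeleton made up the clearest rise. Of 27 listed genes on the chip 16 (59.3%) rose and none fell, and all 27 differences were positive, with a median of 0.85 log2 (replicate medians 0.84, 0.91 and 0.85). Actg2, a smooth muscle actin, stood at 8.26, 8.16 and 8.94 on day 2 and at 11.88, 11.72 and 11.84 on day 3. No day 3 array overlapped a day 2 array, and the rise was 3.36 ± 0.11 log2 (SE), or 10.2-fold (Bonferroni-adjusted p = 6.58e-23). Acta2, the smooth muscle actin that marks activated fibroblasts, rose on both of its probes, by 1.60 ± 0.13 on the brighter and by 2.71 ± 0.15 on the dimmer. Mustn1, a small nuclear protein of the musculoskeletal system, rose from 7.15, 7.13 and 7.30 to 10.79, 10.55 and 10.96, an 11.9-fold change (adjusted p = 5.98e-27). Tpm1 (tropomyosin, 1.97 ± 0.09) and Cnn2 (calponin 2, 1.86 ± 0.10), which bind along actin filaments, rose with them. Myl9, a regulatory light chain of myosin, was above background on no day 2 array by 1 of its probes and on all 3 day 3 arrays, which puts its rise at at least 5.34-fold. For the probes that were above background on 1 day only, the bound compares the mean of the bright day with the dim day's detection limit, taken array by array as the dimmest probe still detected, or with the measured value if larger.

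Many genes of this kind are controlled through a CArG box, the element bound by serum response factor. Promoter windows of RefSeq (GRCm38.p6, 250 bases before to 50 after a start) were at hand for 22 of the 27 genes, and a CArG box stood on either strand in 4 of them (18.2%), Cnn2, Myl6, Myl9 and Vcl, all of which rose. The share over all 27018 genes with a window was 1.81%. A match is a description of the sequence and not a site shown to be used. The windows of Myl9 (chr2:156775214-156775513, plus strand) and Vcl (chr14:20929148-20929447, plus strand) are shown 5′ to 3′ with the CArG box in capitals, since both genes rose and hold the element. The other Myl9 probe was above background on 2 of 3 day 2 arrays and rose by 2.90 ± 0.13.
Myl9: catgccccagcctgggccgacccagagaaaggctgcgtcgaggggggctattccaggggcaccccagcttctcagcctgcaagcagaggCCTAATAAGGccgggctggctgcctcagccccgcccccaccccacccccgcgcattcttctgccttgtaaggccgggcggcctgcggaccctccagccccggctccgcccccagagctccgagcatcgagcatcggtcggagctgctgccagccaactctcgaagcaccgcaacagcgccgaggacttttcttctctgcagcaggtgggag
Vcl: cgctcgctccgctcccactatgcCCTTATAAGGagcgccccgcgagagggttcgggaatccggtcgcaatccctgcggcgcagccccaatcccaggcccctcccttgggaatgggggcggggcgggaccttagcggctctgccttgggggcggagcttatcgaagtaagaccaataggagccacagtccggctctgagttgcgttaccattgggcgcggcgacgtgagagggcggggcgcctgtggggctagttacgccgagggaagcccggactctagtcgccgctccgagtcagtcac
The CArG box begins 161 bases before the start of Myl9 and 227 bases before that of Vcl, whose own rise, of vinculin at cell adhesions, was 0.67 ± 0.11 log2 (adjusted p = 0.00948).

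Genes of the matrix and its remodelling rose next to those of the cytoskeleton. Of 42 matrix genes 19 (45.2%) rose and none fell, with a median difference of 0.50. Timp3, an inhibitor of metalloproteinases, rose from 7.41, 7.75 and 7.71 to 10.43, 10.24 and 10.40, a difference of 2.74 ± 0.11 (adjusted p = 2.1e-20). Fn1 (fibronectin) rose by 2.08 ± 0.10 and Fbn1 (fibrillin 1, of microfibrils) by 1.93 ± 0.11. Mmp3, a stromelysin that digests matrix, was above background on no day 2 array and on all day 3 arrays, at least 3.91-fold higher. Among the 12 largest rises above background on all 6 arrays, outside the lists, were Grem1, an antagonist of bone morphogenetic proteins (2.70 ± 0.12), Plat, the tissue plasminogen activator (2.57 ± 0.10), the matricellular proteins Ccn5 (2.58 ± 0.13) and Ccn4 (2.55 ± 0.09), and Aebp1, a collagen-binding protein (2.27 ± 0.10). Itga11, an integrin subunit that binds collagen, went from no array above background to all 3, at least 7.22-fold higher, and Serpina3g, a serine protease inhibitor, did so by at least 12.6-fold.

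Markers and signals of the undifferentiated cell moved the same way. All 8 fibroblast markers had a positive difference and 5 (62.5%) rose. Ly6a (Sca-1) rose from 11.71, 11.64 and 11.59 to 12.95, 12.98 and 13.04, that is by 1.35 ± 0.11. Thy1 (0.73 ± 0.11), Dlk1 (Pref-1, an inhibitor of adipogenesis, 0.84 ± 0.09), Pdgfrb (0.98 ± 0.09) and Col1a1 (1.13 ± 0.10) rose too, while Pdgfra, Col3a1 and Vim, at 0.27 ± 0.12, 0.77 ± 0.16 and 0.28 ± 0.09, did not pass the test. Thy1 missed the threshold without replicate 1 or 2 (adjusted p = 1). The summed linear signal of the 8 markers went from 58537 to 63457 on the day 2 arrays to 88850 to 100203 on the day 3 arrays. Of 27 preadipocyte, Wnt and TGF-β genes 10 (37.0%) rose and none fell, the largest being Sfrp2, a secreted Wnt modulator. Its day 2 values were 7.30, 7.44 and 6.24 and its day 3 values 10.75, 10.71 and 8.94, with replicate 3 lower on both days, and the difference was 3.14 ± 0.16.

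Secreted inflammatory genes rose in part. Of 24 chemokine and inflammation genes 10 (41.7%) rose and 1 fell. The chemokine Ccl7 was at 9.79, 9.79 and 9.77 on day 2 and at 12.11, 12.18 and 12.12 on day 3, a 5.10-fold rise (adjusted p = 1.01e-19). Its neighbour Ccl2 was above background only on day 3, at least 4.55-fold higher, and Ccl5 likewise, at least 2.02-fold higher, though it missed the threshold without replicate 1 or 2 (adjusted p of 0.0549 to 0.0835). Csf1, the growth factor of macrophages, rose by 2.12 ± 0.10, and Tlr2, a receptor for bacterial lipoproteins, by 2.38 ± 0.11. The member that fell was Lcn2, a lipocalin, by 1.09 ± 0.14 from a mean of 10.17, with an adjusted p of 0.242 without replicate 2. The summed signal of the 6 macrophage markers was 214 to 286 on day 2 and 358 to 433 on day 3, Cd14 alone was above background, and Adgre1, Cd68, Csf1r, Itgam and Ptprc were on no array of either day. Of 21 interferon response genes 6 (28.6%) rose and none fell.

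**Figure D2:**
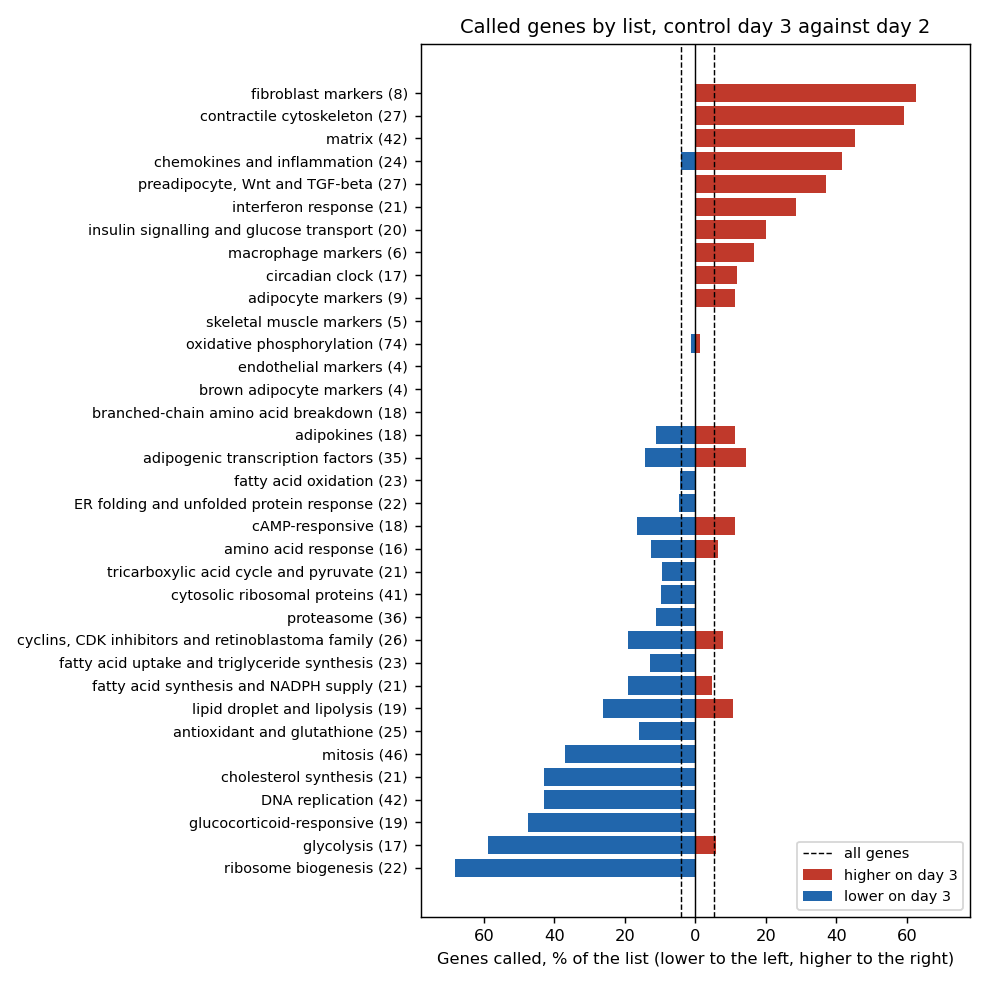
Share of each gene list called on control day 3 against day 2, in percent of the list's genes on the chip (their number in brackets), with genes called higher in red to the right and genes called lower in blue to the left. Dashed lines mark the shares over all genes, 5.28% higher and 4.19% lower. Of all 18750 genes, 7179 were above background on all 3 arrays of at least 1 day, so the lines lie low for lists of mostly detected genes. Fibroblast marker, contractile and matrix lists reach furthest to the right, and ribosome biogenesis, glycolysis and glucocorticoid-responsive lists furthest to the left.

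Most adipocyte markers were not called over this day. Of the 9 adipocyte markers only Cfd (adipsin, a complement protease secreted by fat cells) was called, and the median difference was −0.24. Their summed linear signal was 37151 to 48549 on day 2 and 46106 to 65198 on day 3, ranges that overlap. Cfd stood at 9.09, 9.14 and 8.86 on day 2 and at 13.42, 13.29 and 13.18 on day 3. Its rise of 4.27 ± 0.20 log2, or 19.3-fold (adjusted p = 2.55e-18), was the largest among probes above background on all 6 arrays. Adipoq (adiponectin) was already at 13.88 and differed by 0.78 ± 0.23, Cidec, a lipid droplet protein, was at 14.63 and differed by −0.39 ± 0.22, and Plin1 differed by −0.46 ± 0.17, none of which passed. The Fabp4 probe varied from 6.60 to 9.52 between replicates of day 2, and its difference was −0.29 ± 0.54. Apoc1, an apolipoprotein, rose from 8.18, 8.16 and 7.90 to 10.12, 10.18 and 9.90 (1.99 ± 0.16).

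Several genes of lipid storage fell. Of 19 lipid droplet and lipolysis genes 5 (26.3%) fell and 2 (10.5%) rose, although the median of the list was 0.09. Plin2, the coat protein of small lipid droplets, fell from 12.73, 12.73 and 12.35 to 11.25, 11.11 and 11.00, a difference of −1.48 ± 0.07 (adjusted p = 3.61e-17). G0s2, an inhibitor of the lipase ATGL, fell by 1.16 ± 0.16, and Fabp5, a fatty acid binding protein, fell by 1.35 ± 0.18. Angptl4, a secreted inhibitor of lipoprotein lipase, fell on both of its probes, by 1.77 ± 0.12 on the brighter and by 1.93 ± 0.16 on the dimmer. The rises were of Plin3 (0.64 ± 0.09) and of Mgll, monoacylglycerol lipase (1.15 ± 0.18). Fabp5 and Mgll missed the threshold without replicate 1 or 2 (adjusted p of 0.282 to 0.437 and of 1), Plin3 without any of the 3 (0.0638 to 0.949) and G0s2 without replicate 1 (1). Of 23 genes for fatty acid uptake and triglyceride synthesis 3 (13.0%) fell and none rose. For fatty acid synthesis and NADPH supply 4 of 21 (19.0%) fell and 1 (4.76%) rose. For oxidative phosphorylation 1 of 74 (1.35%) rose and 1 fell. Over all genes 4.19% fell and 5.28% rose.

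The transcription factors of adipogenesis split evenly, with 5 of 35 (14.3%) higher and 5 (14.3%) lower, against 5.28% and 4.19% of all genes. Of the 35, 27 were above background on all 3 arrays of at least 1 day. The early factors Cebpb (−0.93 ± 0.08) and Cebpd (−0.59 ± 0.10) fell, and so did Klf5, which acts with them, from 10.03, 10.08 and 10.31 to 9.20, 9.10 and 9.13, Ebf2 (−0.98 ± 0.16) and the coactivator Ppargc1a (−0.92 ± 0.16). Factors known to restrain adipogenesis were among the rises, Gata2 (1.45 ± 0.10), Gata3 (1.02 ± 0.15) and Klf2 (0.85 ± 0.13), beside Id2 (1.19 ± 0.11) and Klf4 (1.55 ± 0.17). Pparg differed by −0.08 ± 0.11 and Cebpa by −0.57 ± 0.13, neither of which passed the test. Of the called factors, Cebpd, Ebf2, Ppargc1a, Gata3 and Klf2 missed the threshold whichever replicate was left out, with adjusted p of 0.463 to 1, 0.304 to 1, 1, 0.0565 to 0.704 and 0.230 to 0.892, and Klf5 without replicate 2 (0.255).

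The largest coordinated fall was in genes of ribosome biogenesis. Of 22 genes for making ribosomes in the nucleolus 15 (68.2%) fell and none rose, with a median difference of −0.89 (replicate medians −0.87, −0.93 and −0.85). Nop56, a core protein of the particles that methylate ribosomal RNA, stood at 11.46, 11.16 and 11.83 on day 2 and at 9.95, 9.61 and 10.52 on day 3. The days did not overlap within or across replicates, and the difference was −1.46 ± 0.14 (adjusted p = 3.26e-08). Nolc1, a nucleolar chaperone, fell by 1.41 ± 0.20 (adjusted p of 0.159 and 0.438 without replicate 1 or 2). Myc, the transcription factor that drives many of these genes and was listed with them, fell by 1.37 ± 0.15, from above background on all 3 arrays to 1 of 3. Of 41 genes for the proteins of the cytosolic ribosome itself, 4 (9.76%) fell and none rose.

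Cell division genes fell as well. Of 42 DNA replication genes 18 (42.9%) fell and of 46 mitosis genes 17 (37.0%) fell, and none of either list rose, with medians of −0.57 and −0.56. Cdc45, part of the replicative helicase, went from 8.03, 7.99 and 8.18 to 6.01, 6.34 and 6.91 and was above background on 1 of the 3 day 3 arrays. Rrm2, which supplies deoxynucleotides, fell by 1.04 ± 0.16, the mitotic gene Cdca3 fell 2.14-fold, and Aurka (Aurora kinase A) fell by 1.07 ± 0.14. Without replicate 1 or 2 the adjusted p was 0.171 to 1 for Rrm2 and 0.0948 to 0.953 for Aurka. Ccne2, a cyclin of entry into S phase, was above background on all 3 day 2 arrays and on no day 3 array, at least 2.34-fold lower. Of 26 cyclins, kinase inhibitors and retinoblastoma family genes 5 (19.2%) fell and 2 (7.69%) rose, against 4.19% and 5.28% of all genes. The rises were of the cyclin Ccnd1, by 1.19 ± 0.07, and of the kinase inhibitor Cdkn2b, by 0.99 ± 0.09, while the inhibitor Cdkn1a, named after its value was seen, fell by 0.55 ± 0.08.

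Genes of mitosis often carry a cell cycle homology element near their start. The letters TTTGAA stood on either strand in the windows of 28 of the 40 mitosis genes with a window (70.0%), against 20.2% of all genes, and CCAAT in 30 of them (75.0%) against 41.1%. In the mitosis genes that fell TTTGAA stood in 9 of 14 (64.3%), and in the DNA replication genes in 5 of 35 (14.3%). CCAAT stood in 22 of those 35 DNA replication genes (62.9%), also above its share over all genes. The windows of Cdc20 (chr4:118437294-118437593, minus strand), whose product activates the anaphase complex and which fell by 0.97 ± 0.12, and of the kinase gene Plk1 (chr7:122159185-122159484, plus strand), which fell by 0.75 ± 0.12, are shown with TTTGAA in capitals, as examples of mitosis genes with these letters.
Cdc20: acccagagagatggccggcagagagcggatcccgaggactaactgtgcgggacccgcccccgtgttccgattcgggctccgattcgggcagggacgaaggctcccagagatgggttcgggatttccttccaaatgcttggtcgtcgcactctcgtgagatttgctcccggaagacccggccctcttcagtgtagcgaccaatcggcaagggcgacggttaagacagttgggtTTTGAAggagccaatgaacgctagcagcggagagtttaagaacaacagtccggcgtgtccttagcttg
Plk1: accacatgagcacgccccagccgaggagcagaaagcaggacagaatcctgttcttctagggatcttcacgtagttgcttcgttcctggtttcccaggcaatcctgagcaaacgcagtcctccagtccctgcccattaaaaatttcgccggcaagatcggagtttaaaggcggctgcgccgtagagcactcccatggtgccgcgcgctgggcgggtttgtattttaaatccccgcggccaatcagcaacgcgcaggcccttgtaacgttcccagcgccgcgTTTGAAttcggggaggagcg
For ribosome biogenesis, CACGTG, the letters bound by Myc, stood in 2 of 18 windows (11.1%) against 8.09% of all genes.

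Genes of sugar and sterol metabolism fell over the same day. Of 17 glycolysis genes 10 (58.8%) fell and 1 rose, with a median of −0.66. Pfkl, the liver-type phosphofructokinase that commits glucose to glycolysis, fell from 13.15, 13.08 and 12.98 to 11.77, 11.78 and 11.81 (−1.29 ± 0.09, adjusted p = 8.27e-13). Ldha, lactate dehydrogenase, fell by 1.14 ± 0.10, and Pdk1, which inhibits pyruvate dehydrogenase, fell by 1.03 ± 0.12. The oxygen sensor Egln3, on no list, fell by 1.90 ± 0.14. Of 21 cholesterol synthesis genes 9 (42.9%) fell and none rose, with a median of −0.49, among them Mvd (−0.96 ± 0.11) and Cyp51 (−0.94 ± 0.08), enzymes of the mevalonate and sterol branches. Mvd had an adjusted p of 0.0566 without replicate 1.

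Genes known to respond to glucocorticoids fell, and their highest day was earlier. Of 19 such genes 9 (47.4%) fell and none rose, with a median of −0.59. Fkbp5, a co-chaperone of the glucocorticoid receptor, was at 11.50, 11.74 and 11.39 on day 2 and at 10.17, 10.15 and 9.92 on day 3 (−1.46 ± 0.13). Over the control course its mean was 8.81 on day −2, 12.31 on day 0, 11.45 on day 1, 11.55 on day 2, 10.08 on day 3 and 8.93 on day 6. Tsc22d3 (GILZ) fell by 1.88 ± 0.15 to a level above background on 1 of 3 arrays, and Ddit4, an inhibitor of mTORC1, fell by 1.69 ± 0.09. The deepest fall among probes above background throughout was of BC055107, a transcript named as the file gives it, from 12.04, 12.03 and 11.57 to 8.14, 8.12 and 7.50 (−3.96 ± 0.23). It had been at 4.99 on day −2 and at 12.19 on day 0. Probes for the ribonucleases Ear2 and EAR3, members of a family of near-identical copies that a probe may not tell apart, went from above background on all day 2 arrays to none on day 3, at least 6.33-fold and 6.47-fold lower, and Ear2 had an adjusted p of 0.0861 without replicate 1. The falls of Smpdl3b, a sphingomyelinase-like protein (−2.26 ± 0.12), Cpm, carboxypeptidase M (−2.02 ± 0.17), Cbr3, a carbonyl reductase (−1.88 ± 0.08), and Hspd1, the mitochondrial chaperonin HSP60 (−1.58 ± 0.14), stood next in size with that of Trim29 (−1.79 ± 0.15), Map7d2 (−1.78 ± 0.21, adjusted p = 0.0588 without replicate 1), Nt5dc2 (−1.60 ± 0.11) and Ramp2, an accessory protein of receptors (−1.57 ± 0.13).

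The remaining lists had few called genes. Of 20 insulin signalling and glucose transport genes 4 rose and none fell, led by Igf1, insulin-like growth factor 1 (1.66 ± 0.15). Dbp and Per2, 2 of 17 genes of the circadian clock (11.8%), rose by 1.32 ± 0.11 and 0.62 ± 0.10, Per2 with an adjusted p of 1 without replicate 1 or 3. Of 36 proteasome genes 4 (11.1%) fell, with 32 differences negative and a median of −0.35 (replicate medians −0.30, −0.34 and −0.34). Of 25 antioxidant genes 4 fell, of 21 tricarboxylic acid cycle genes 2 and of 23 fatty acid oxidation genes 1, with no rise in any of these lists or among the proteasome genes. In the cAMP list 2 of 18 (11.1%) rose and 3 (16.7%) fell. In the amino acid response list 1 of 16 (6.25%) rose and 2 (12.5%) fell. Of 22 genes of folding in the endoplasmic reticulum 1 (4.55%) fell, and none of 18 for branched-chain amino acid breakdown was called.

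**Figure D3:**
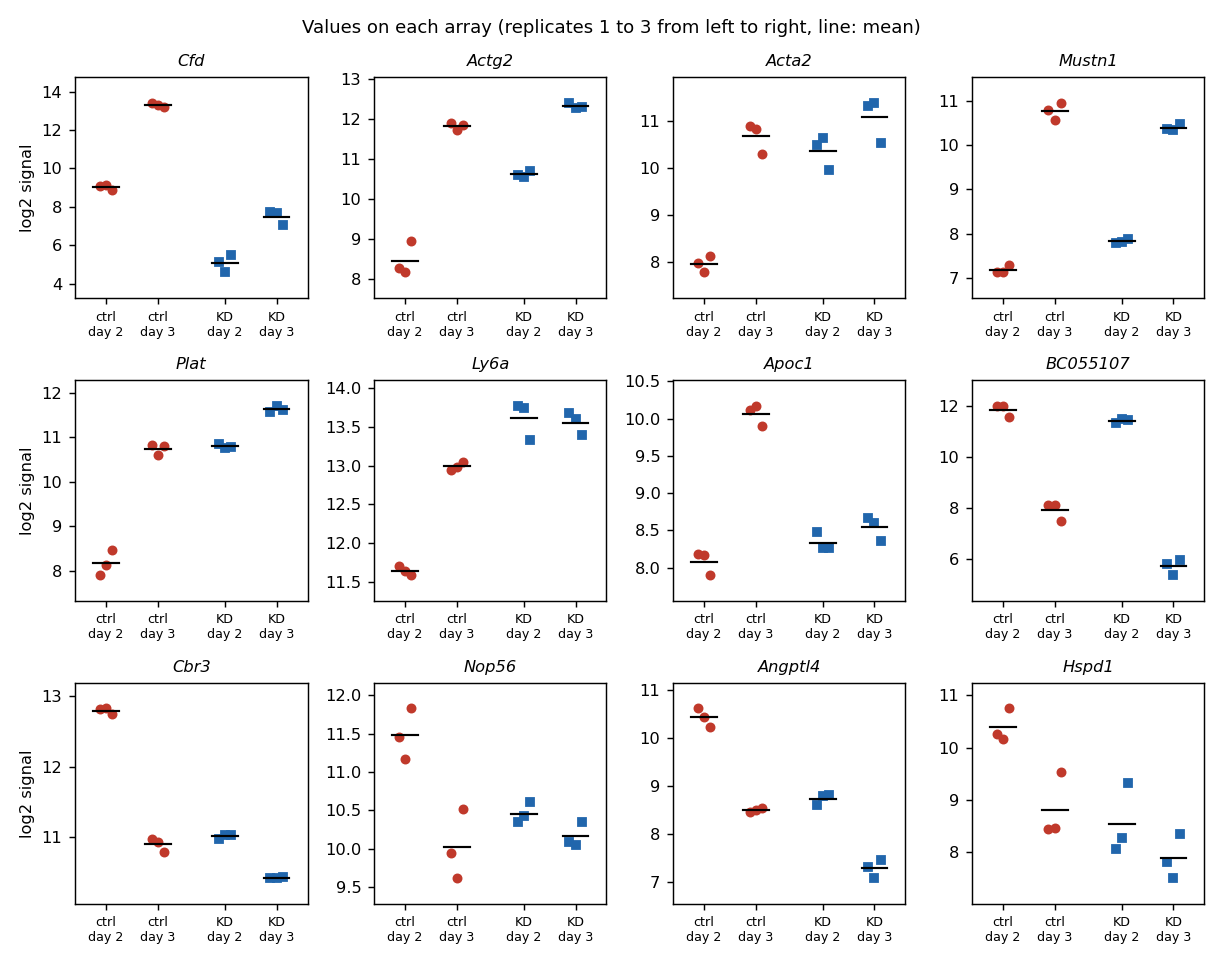
Normalized log2 signal of 12 genes on each array, with control siRNA (ctrl) as red circles and PPARγ siRNA (KD) as blue squares on day 2 and day 3, replicates 1 to 3 from left to right and a line at the mean, each panel on its own scale that does not start at 0. In control cells the groups of the 2 days do not overlap in any panel, whereas Ly6a and Plat in KD cells are near or above the control day 3 level on day 2 already.

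Seen over the whole control course, day 2 was the lowest or highest day for most of the called genes. Of the 990 genes that rose, 711 (71.8%) had their lowest mean of all 8 control days on day 2, against 13.6% of all genes, and of the 786 that fell, 599 (76.2%) had their highest mean there, against 18.7%. These shares use the day 2 arrays that also made the call, so they describe the genes and test nothing. The day 1 to 2 step was itself called in the opposite direction for 305 of the rising and 154 of the falling genes. Some lists had their high elsewhere, with day 2 the highest day for 5 of 46 mitosis genes and 2 of 19 glucocorticoid-responsive genes. On days outside the contrast, whose arrays entered the fit through its spread and block, 915 of the rising genes (92.4%) were higher on days 4 to 6 than on day 1, against 49.4% of all genes, and 676 of the falling genes (86.0%) were lower, against 50.6%. The contractile list lay 1.19 ± 0.09 (SD, n = 3) log2 below control day −2 on day 2 and 0.31 ± 0.05 below it on day 3. Ribosome biogenesis was 1.13 ± 0.06 above day −2 on day 2, 0.23 ± 0.02 above it on day 3 and 0.04 ± 0.03 above it on day 6. Mustn1 and Actg2 alternated from day to day, with Mustn1 at 9.04, 6.40, 9.68, 7.19 and 10.77 and Actg2 at 11.95, 7.55, 10.81, 8.46 and 11.81 on days −2, 0, 1, 2 and 3. Cholesterol synthesis stood at 0.60 above day −2 on day 2, 0.10 on day 3 and 0.83 on day 4.

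The step was tested against its neighbours in the same fit. The difference from the day 1 to 2 step passed for 1549 probes (6.29%), 848 in the upward and 701 in the downward direction, and the difference of the day 3 to 4 step from this one passed for 554 (2.25%), 220 upward and 334 downward. Both differences share arrays with the step itself. Taken alone, the step before called 840 probes and the step after called 230. The adipocyte markers had a median step of 1.52 log2 from day 1 to 2, −0.24 from day 2 to 3 and 0.15 from day 3 to 4. Cfd rose in all 3 of these steps, by 1.82 ± 0.20, 4.27 ± 0.20 and 1.71 ± 0.20, and reached 15.53 on day 6.

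**Figure D4:**
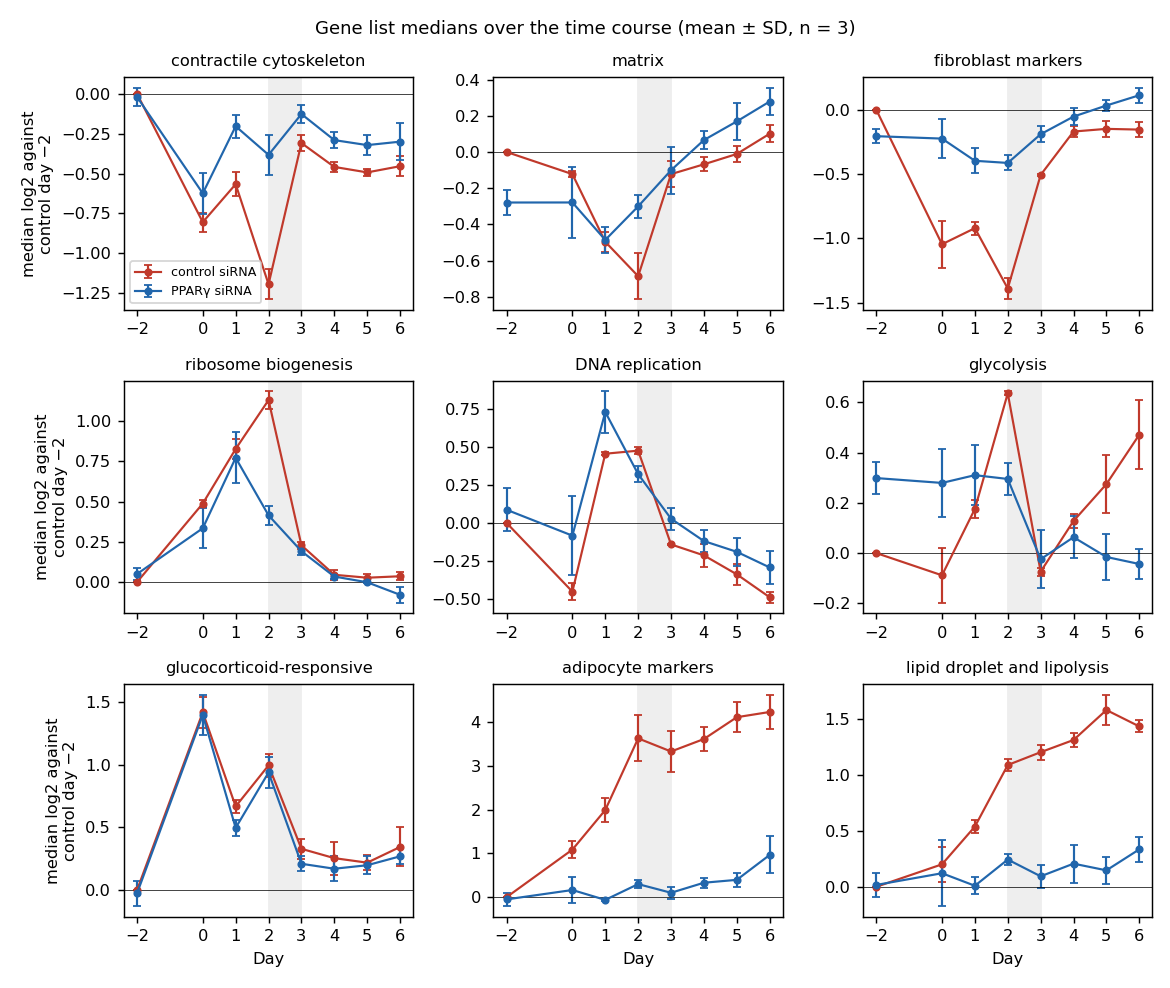
Median log2 signal of 9 gene lists relative to control day −2, by day, in control siRNA (red) and PPARγ siRNA cells (blue), as mean ± SD of 3 replicates, each panel on its own scale. The grey band marks day 2 to 3. Contractile and fibroblast lists have their control low on day 2, at −1.19 and −1.39, ribosome biogenesis and glycolysis have their control high there, and the glucocorticoid-responsive list runs alike in both siRNAs.

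In PPARγ KD cells fewer probes passed over the same day. There 468 probes (1.90%) were called, 222 higher and 246 lower, from other arrays than the control difference, though all 48 shared 1 estimate of the spread. The genes that rose in control had a median step of 0.89 in control and 0.29 in KD, and those that fell had −0.74 and −0.28, although 887 of 990 and 747 of 786 kept the sign. The difference between the 2 steps, tested as an interaction, passed for 371 probes (1.51%), 282 of them with the higher step in control, and for 336 genes (1.79%), 257 of them in that direction. It passed for 62, 70 and 257 probes without replicate 1, 2 and 3, and for 123 without the replicate block. In the fit over all arrays it passed for 9 of the 27 contractile genes, with list medians of 0.85 in control and 0.21 in KD, for 8 of the 42 matrix genes and for 8 of the 22 ribosome biogenesis genes, whose medians were −0.89 and −0.24. For no gene of the DNA replication or mitosis lists did the difference pass, with medians of −0.57 and −0.56 in control against −0.31 and −0.33 in KD.

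Most of the difference lay on day 2. In the 257 genes with the higher step in control, KD cells were above control cells by a median of 1.21 log2 on day 2 and of 0.25 on day 3, values from the arrays that chose these genes. Acta2 (dimmer probe) was at 7.97, 7.78 and 8.13 in control and at a mean of 10.36 in KD on day 2, and at means of 10.67 and 11.07 on day 3, with a difference of steps of 2.00 ± 0.21 (adjusted p = 3.95e-07). Plat was at 8.17 in control and 10.80 in KD on day 2 (difference of steps 1.74 ± 0.15, adjusted p = 8.07e-10). Ly6a differed by −0.06 ± 0.11 over the step in KD cells, against its rise of 1.35 in control (difference 1.41 ± 0.16). Nop56 and Cbr3 were lower in KD than in control cells on day 2, at 10.46 against 11.49 and at 11.02 against 12.79, and the differences of steps were −1.16 ± 0.20 and −1.30 ± 0.12.

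Some lists and genes had steps as large in KD cells as in control cells, or larger. Apoc1, Smpdl3b, Mak16, Pdxp and Cyp51, given below, had the larger step in control. The glucocorticoid-responsive list fell by a median of 0.92 in KD, with 9 of its 19 genes called, and Fkbp5 fell by 1.75 ± 0.13 there (difference of steps 0.28 ± 0.18, adjusted p = 1). The cholesterol list had medians of −0.49 and −0.50 and 9 genes called lower in each siRNA. The difference of steps passed for 1 of its 21 genes, Cyp51, with steps of −0.94 in control and −0.30 in KD (difference −0.65 ± 0.11, adjusted p = 0.0355). Dbp rose by 1.32 in control and by 1.46 in KD. Sult1a1, a sulfotransferase, and Syn2, a synapsin, differed by 0.00 ± 0.20 and −0.19 ± 0.15 in control. In KD Sult1a1 fell by 2.06 ± 0.20, and the difference of steps passed (adjusted p = 0.000352). Syn2 was above background on all KD arrays of day 2 and on none of day 3, so its KD fall was at least 1.82-fold, or 0.87 log2, and the difference of steps at least 0.67 (adjusted p of the fitted difference 1.59e-06). Apoc1, at 8.33 and 8.54 in KD cells, rose more in control by 1.78 ± 0.23. Cfd was above background on no KD array of day 2 and on all of day 3 (mean 7.50), so its KD rise was at least 2.04-fold, or 1.03 log2, and the difference of steps has only an upper bound of 3.24, from which no direction can be read. Smpdl3b, Mak16 and Pdxp fell more in control, by 1.24 ± 0.18, 1.16 ± 0.20 and 1.09 ± 0.17.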

How the data were processed

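Total RNA of 48 cultures was hybridised to Illumina MouseRef-8 chips. The authors deposited, per the file headers from BeadStudio 3.3.7, the average bead intensity of each of 24613 probes on each array, not normalized, together with a detection score written as a fraction (1 minus the detection p-value). The annotation build was not given in the sources used here. Here intensities were background-corrected with the normexp model (nec of limma 3.58.1, offset 16, R 4.3.3), scaled by rank-invariant probes between the 50th and 90th percentile (rank move under 0.05), and taken to log2. A linear model gave each of the 16 conditions a mean over 3 arrays, with the replicate number as a block, followed by eBayes. Calls were made where p, after Bonferroni adjustment over all probes, did not exceed 0.05. SEs are those of the model.

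Same-numbered arrays of day 2 and day 3 deviated together (correlations of 0.791, 0.641 and 0.899), and the numbers were taken to pair the samples on that ground. The deviations mainly set replicate 3 apart, since day 2 replicate 2 correlated at 0.709 with day 3 replicate 1 and day 2 replicate 1 at 0.560 with day 3 replicate 2. Probe names were matched to RefSeq symbols, 18343 by symbol and 4361 by synonym, and 1909 kept the file's name. A gene was read through its brightest probe over all arrays. Genes named are, by rule, the 12 largest called rises and falls above background on all 6 arrays with 1 direction in all pairs, the 4 brightest of those above background on 1 day only, up to 4 called genes a list and direction, members of the factor, adipokine and marker lists, and the 6 largest differences from KD in each direction above background on all 6 control arrays, with no filter on the KD arrays. Vcl, Myl6, Cdc20, Plk1 and Cdkn1a lie outside it and were chosen after their values were seen. The members and lists were chosen with earlier results of these data known. Alternatives were quantile normalization, no background correction, offset 50, a filter on dim probes, other blocks, fewer arrays, Benjamini-Hochberg adjustment and an intensity trend. The number of arrays limits the precision.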

Additional observations from a re-analysis of the deposited data

Results flagged for a closer look

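The step from day 2 to day 3 differed between control siRNA and PPARγ siRNA for 371 probes by the interaction test of limma with Bonferroni adjustment. With the higher step in control, the 6 largest fitted differences among probes above background on all 6 control arrays were those of Sult1a1 (2.06 log2), Acta2 (2.00), Syn2 (1.93), Cfd (1.84), Apoc1 (1.78) and Plat (1.74). With the lower step in control they were those of Cbr3 (−1.30), Smpdl3b (−1.24), Nop56 (−1.16), Mak16 (−1.16), LOC100045950 (−1.15) and Pdxp (−1.09). The filter looked at control arrays only, and these are fitted values. Cfd was above background on no KD array of day 2 and Syn2 on none of day 3, so the difference is at most 3.24 for Cfd and at least 0.67 for Syn2, and their places in this order are not fixed. For Sult1a1 and Syn2 the control step itself was not called. Cultures of the 2 siRNAs with the same replicate number are in the same block of the fit. The labels do not state that equal numbers mark matched cultures across the siRNAs, and this was not checked.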

How the results depend on the processing

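None of the 141 called probes among those named changed sign under the 9 alternatives run on single probes (4 of normalization and filter, 2 of the block and 3 leaving out a replicate). Only quantile normalization, no background correction and offset 50 could have changed a sign. The filter and the changes of block leave a probe's difference as it was. Leaving out a replicate averages pairs that already agreed in sign. Of 35 list medians, 15 moved by over their spread between replicates with the filter on dim probes, 8 without background correction, 6 with quantile normalization, 6 with offset 50, and 6, 4 and 10 without replicate 1, 2 and 3. In 9 lists, with medians of up to 0.09 in size, the median changed sign under at least 1 of these, the lipid droplet and lipolysis list from 0.09 to −0.31 with the filter. Against 2079 probes for the day 2 to 3 step, 371 for its difference from KD, 1549 for its difference from the step before and 554 for that of the step after, the fit without the replicate block called 964, 123, 724 and 226, and all 964 were among the 2079. Only the arrays of the conditions compared gave 576, 68, 616 and 144, and Benjamini-Hochberg adjustment gave 5311, 1967, 4507 and 2369. Leaving out 1 replicate from all conditions gave 803 to 1456, 62 to 257, 549 to 1039 and 122 to 365. Leaving out a single control array gave 1572 to 1730 for the step, 274 to 356 for the difference from KD, 1033 to 1417 for the step before and 335 to 509 for the step after, where the lowest counts were 335, 350 and 349 without control day 3 replicate 1, 2 and 3. Quantile normalization gave 2268, no background correction 1928, offset 50 2063 and a filter on dim probes 2345 for the step. Of the 141 called probes among those named, 52 missed the threshold without the block, 8 under quantile normalization and 57, 43 and 22 without replicate 1, 2 and 3. The number of arrays and signals near background limit what could be called.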
